A study of Mus musculus with 18 samples.

Results

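The genes described here encode the mouse proteasome: its subunits, activators, inhibitor and assembly chaperones, read in sorted splenic NK cells with and without deletion of Eomes. Members were the protein-coding genes whose symbol begins with Psm, followed by 1 of the letters a to g and a number. This gave 50 genes of the 41388 listed, and 4 pseudogenes with matching symbols were left out. The inducible immunoproteasome genes Psmb8, Psmb9 and Psmb10 were read apart. One member, Psmc3ip, shares the symbol pattern but encodes a meiotic recombination cofactor and no proteasome subunit.

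The proteasome degrades proteins tagged with ubiquitin. Its 20S core is a barrel of alpha and beta subunit rings, and 3 of the beta subunits, Psmb5, Psmb6 and Psmb7, carry the cutting sites. The 19S particle on the barrel's ends recognises and unfolds the substrate with a ring of ATPases, a base and a lid. Interferon-gamma and lymphoid identity bring in Psmb8 for Psmb5, Psmb9 for Psmb6 and Psmb10 for Psmb7, which makes the immunoproteasome, and also PA28, an activator built from Psme1 and Psme2. Both favour peptides that fit MHC class I molecules.

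RNA was sequenced from NK cells of pooled C57BL/6 spleens in 6 groups of 3 libraries, KO stage II, III and IV and WT stage II, III and IV. KO cells came from tamoxifen-treated mice that carried the alleles Ncr1-iCreERT2 KI/WT, Rosa26YFPLSL and Eomesfl/fl, in which an inducible Cre driven from the Ncr1 locus of NK cells and related innate lymphoid cells removes floxed Eomes and switches on YFP. WT is labelled with no allele, and the notes on tamoxifen name a genotype in 1 place, KO, and none in the other. Whether WT mice carried Cre or received the drug is thus uncertain. If they did not, effects of Cre or tamoxifen and of losing Eomes cannot be told apart. The mice were 8 to 12 weeks old and treated for 3 days, and stages were sorted as CD27+CD11b- (II), CD27+CD11b+ (III) and CD27-CD11b+ (IV), which is the order in which NK cells mature. The labels name 3 experiments but do not tie a replicate number to one, and do not say how many mice a pool held. P-values measure the spread between these pools. Whether libraries of different stages came from the same pools is uncertain, and the test took the stages as independent groups.

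Libraries held 18684350 to 28365837 counts, and no pair of libraries was identical. Eomes, the deleted gene, was present at 55.2 to 74.3 CPM (counts scaled to library size) in KO stage II and at 191 to 213 CPM in WT stage II. It was at 135 to 159.9 CPM in KO stage III against 250.3 to 287 CPM in WT stage III, and at 89.8 to 121 CPM in KO stage IV against 237 to 275 CPM in WT stage IV, so it was lower in every KO library than in the WT libraries of its stage, but not absent. All 10 NK cell markers were found. KO stage III replicates 1 and 3 stood apart. Only 14824 and 16536 genes were detected in them, where replicate 2 of that group had 21454. A larger part of their counts, 17.0% and 20.6%, fell on the top 10 genes, where it was 10.6% in replicate 2. More genes were detected in KO stage IV replicate 3, 27912, and in WT stage II replicate 1, 29859, against 17899 to 21556 in the other 14 libraries. Results that rest on the 2 KO stage III libraries are given with and without them. Xist was at most 0.636 CPM in WT replicates 2 and 3 of every stage and 5.66 to 45.2 CPM in the other 12 libraries, and the labels give no sex. All KO libraries are among these 12. If sex differs in this way, it and the loss of Eomes cannot be told apart in KO against WT over all libraries. With replicate 1 libraries alone, a choice made after seeing the data, the median log2 difference of KO and WT over the 48 tested members was 0.03, 0.35 and 0.11 at stages II, III and IV, with no test.

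Of the 50 members, 48 passed the filter on low counts. Psma8, the testis form of an alpha subunit, had 0 to 13 counts per library, and Psmb11, the thymus form of a catalytic beta subunit, had 0 to 5 counts. Levels below are scaled RPKM, that is RPKM from the counts and the listed gene length after scaling of each library by edgeR's trimmed mean of M values. Averaged over the 6 groups, the 20S subunits Psmb1, Psma2 and Psmb2 stood at 500.4, 279 and 239.9 scaled RPKM. The immunoproteasome gene Psmb10 stood at 297 scaled RPKM, Psmb8 at 137 and Psmb9 at 64.3. The activator genes Psme1 and Psme2 were at 206 and 92.7 scaled RPKM. Alternative activators were scarce: Psme3, which forms the nuclear PA28-gamma ring, was at 17.4 scaled RPKM and Psme4, which encodes PA200, at 3.43. The listed length can differ from that of a gene's principal transcript, so this order depends on the length used: per length of the principal transcript, Psme1, Psma7 and Psmb6 led at 409, 391 and 387 scaled RPKM.

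The spread within groups differed between members. The SD of log2 values pooled over the groups was lowest for the 19S ATPase genes Psmc3 and Psmc5, at 0.08 and 0.10. It was 0.16 for Psmb10, 0.21 for Psmb1 and 0.30 for Psmb3. It was 0.59 for Psmd13, a subunit of the 19S lid, which is described further on and was chosen after its values were seen.

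The promoters of Psmb8, Psmb9, Psmb10, Psme1 and Psme2 are shown beside those of the constitutive catalytic subunits Psmb5 and Psmb6, so that inducible and constitutive genes can be compared. Psmb7 and Psmg2 have no window in the table, and Psmc1, called in KO cells only, is not shown. The windows run from 250 bases before to 50 bases after the RefSeq start site on GRCm38.p6, 5′ to 3′ in the direction of the gene. For Psme2, which has 2 windows, the one that lies farthest upstream is given. The windows of Psmb8, Psmb9 and Psme1 lie wholly inside the listed genes, whose first bases are 34197721, 34187764 and 55578123. Bases upstream of those listed starts were not searched for these 3 genes, which limits the comparison. Capitals mark matches, on either strand, to 3 short motifs: GAAA, any 2 bases and GAAA again for the interferon-stimulated response element (ISRE), TTCNNNGAA for the gamma-activated site (GAS), and TGACNNNGC for the antioxidant response element (ARE), through which Nfe2l1 and Nfe2l2 act on proteasome genes. None of the 3 motifs overlapped another in the printed windows.
Psmb8, chr17:34197945-34198244, plus strand: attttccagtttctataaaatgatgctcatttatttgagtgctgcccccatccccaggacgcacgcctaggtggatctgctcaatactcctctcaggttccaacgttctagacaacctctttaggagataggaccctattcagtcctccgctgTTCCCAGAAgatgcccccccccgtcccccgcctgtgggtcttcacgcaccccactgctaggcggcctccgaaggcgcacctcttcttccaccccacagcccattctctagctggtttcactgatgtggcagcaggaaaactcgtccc
Psmb9, chr17:34187281-34187580, minus strand: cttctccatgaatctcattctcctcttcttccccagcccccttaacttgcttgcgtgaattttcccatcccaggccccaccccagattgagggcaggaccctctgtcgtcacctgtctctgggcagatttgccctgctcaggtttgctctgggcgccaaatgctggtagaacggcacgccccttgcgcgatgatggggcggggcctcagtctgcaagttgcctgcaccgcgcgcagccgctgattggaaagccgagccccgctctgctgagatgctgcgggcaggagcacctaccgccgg
Psmb10, chr8:105938343-105938642, minus strand: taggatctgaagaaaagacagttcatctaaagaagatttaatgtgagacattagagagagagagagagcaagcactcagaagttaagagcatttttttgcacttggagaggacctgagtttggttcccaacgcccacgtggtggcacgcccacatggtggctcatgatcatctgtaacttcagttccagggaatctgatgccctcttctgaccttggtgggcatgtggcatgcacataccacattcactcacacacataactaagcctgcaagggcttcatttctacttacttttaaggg
Psme1, chr14:55578244-55578543, plus strand: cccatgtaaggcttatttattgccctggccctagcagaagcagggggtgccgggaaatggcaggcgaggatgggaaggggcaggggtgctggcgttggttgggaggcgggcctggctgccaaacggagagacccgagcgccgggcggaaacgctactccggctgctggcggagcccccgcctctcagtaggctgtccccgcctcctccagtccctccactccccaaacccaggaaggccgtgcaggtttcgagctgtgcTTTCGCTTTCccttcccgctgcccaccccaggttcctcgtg
Psme2, chr14:55591052-55591351, minus strand: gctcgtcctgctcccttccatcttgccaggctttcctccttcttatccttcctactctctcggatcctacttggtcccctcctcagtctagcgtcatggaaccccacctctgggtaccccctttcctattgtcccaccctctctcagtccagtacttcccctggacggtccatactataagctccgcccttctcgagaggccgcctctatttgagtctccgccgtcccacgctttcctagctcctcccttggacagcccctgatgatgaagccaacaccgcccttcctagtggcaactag
Psmb5, chr14:54617946-54618245, minus strand: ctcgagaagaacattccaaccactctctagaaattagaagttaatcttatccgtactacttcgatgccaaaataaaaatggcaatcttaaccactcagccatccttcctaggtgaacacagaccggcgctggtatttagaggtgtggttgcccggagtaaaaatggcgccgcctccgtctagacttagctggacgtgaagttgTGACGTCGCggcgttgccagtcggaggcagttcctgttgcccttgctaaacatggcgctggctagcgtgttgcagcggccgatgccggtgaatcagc
Psmb6, chr11:70525107-70525406, plus strand: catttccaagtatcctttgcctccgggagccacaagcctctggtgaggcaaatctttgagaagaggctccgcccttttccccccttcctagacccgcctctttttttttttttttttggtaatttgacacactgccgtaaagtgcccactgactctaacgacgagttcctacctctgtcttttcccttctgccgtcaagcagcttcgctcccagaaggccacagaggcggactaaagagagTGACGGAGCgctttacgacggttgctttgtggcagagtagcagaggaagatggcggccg

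The ISRE letters stood at position +10 of the Psme1 window, counted from +1 at the start site, on the opposite strand. The GAS letters stood at -97 of Psmb8. The ARE letters stood at -47 of Psmb5 and at -9 of Psmb6. A window was found for 42 of the 50 members. In all, ISRE letters were found in 5 of these 42 members (Psmb3, Psmd4, Psmd9, Psme1 and Psmg4) and in 3.44% of 32851 promoter windows. GAS letters were found in 3 members (Psmb8, Psmd2 and Psmg1) and in 8.30% of windows, and ARE letters in 6 members (Psmb5, Psmb6, Psmc6, Psmd9, Psmd12 and Psme4) and in 12.4% of windows. The Psmb9 window shares 275 of its 300 bases with that of Tap1, which encodes a peptide transporter chain and runs the other way from the same promoter. A match is a run of letters and no measure of binding.

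In stage IV against stage II the PA28 genes Psme1 and Psme2, the immunoproteasome gene Psmb10 and the assembly chaperone gene Psmg2 fell in KO and in WT cells, by 1.37-fold to 1.76-fold. No 20S alpha or constitutive beta gene was called. In KO cells 5 of 48 members fell in stage IV relative to stage II and none rose, where 8.76% of all tested genes fell and 6.12% rose (edgeR quasi-likelihood test, adjusted p under 0.05). In WT cells 5 of 48 fell and none rose, where 9.82% of all tested genes fell and 5.26% rose. The members' share, 5 of 48, was thus near that of all genes. Psmb10, Psme1, Psme2 and Psmg2 were called in both genotypes, which is 4 of the 5 called in each, and 6.26% of all tested genes were called lower in both. The KO count was 1 without KO stage IV replicate 2 (Psme2), where 865 of 16328 genes fell, against 1240 of 14156 with all libraries. It was 2 without KO stage II replicate 1 or 2, where 924 of 16308 and 902 of 16290 genes fell. It was 3 without KO stage II replicate 3 or KO stage IV replicate 3, where 890 of 16365 and 938 of 14446 genes fell. Calls over all genes thus dropped in these KO fits as well. The WT count was 0 without WT stage IV replicate 3, 1 without WT stage II replicate 2 (Psmg2), and 3 without WT stage IV replicate 1 or 2. Without WT stage II replicate 1 it was 4, where 1204 of 14417 genes fell. All-gene counts of the other WT fits are not given here, so their member counts cannot be set against a general loss of calls. Without KO stage III replicates 1 and 3 the counts were 7 in KO cells, where 10.7% of all genes fell, and 9 in WT cells, where 11.6% did.

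Psme1 encodes the alpha subunit of PA28. In KO cells it had 239.8, 232 and 211 scaled RPKM at stage II, 305, 208 and 197 at stage III, and 180.5, 146 and 138 at stage IV. In WT cells it had 227, 269 and 253 scaled RPKM at stage II, 220.2, 219 and 201 at stage III, and 156, 167 and 137 at stage IV. Every stage IV library was below every stage II library of its genotype. The log2 fold change of stage IV against II was -0.55 ± 0.16 (SE, n = 3 each) in KO cells, adjusted p = 0.0234, and -0.71 ± 0.16 in WT cells, a 1.63-fold lower level with adjusted p = 0.00521.

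Psme2, the beta subunit of PA28, had 108, 108 and 117 scaled RPKM in KO stage II, 136, 85.0 and 127 in KO stage III, and 78.6, 62.1 and 61.0 in KO stage IV. In WT cells it had 101, 116 and 99.4 scaled RPKM at stage II, 94.1, 91.4 and 80.7 at stage III, and 66.3, 72.6 and 63.9 at stage IV. Stage IV and stage II did not overlap in either genotype. The log2 fold change was -0.72 ± 0.16 in KO cells (adjusted p = 0.00338) and -0.64 ± 0.16 in WT cells (adjusted p = 0.00893). Psme2b, a near copy of Psme2 listed at 5.89 to 11.2 scaled RPKM, could take reads from it or lend reads to it, so both values are uncertain to that extent.

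The immunoproteasome genes moved the same way, and not every one passed the test in each genotype. Psmb10 had 362, 327 and 334 scaled RPKM in KO stage II, 421, 271 and 367 in KO stage III, and 249, 214 and 230.2 in KO stage IV. WT cells had 319, 347 and 299 scaled RPKM at stage II, 323, 306 and 277 at stage III, and 228, 256 and 222 at stage IV. The groups at stage II and stage IV were separate in both genotypes. Psmb10 fell by 0.56 on the log2 scale in KO cells (SE 0.14, adjusted p = 0.0112) and by 0.45 in WT cells (SE 0.14, adjusted p = 0.0377). The WT call for Psmb10 was close to the threshold and was kept in 3 of the 18 fits that each left out 1 library.

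Psmb9 had 71.3, 61.4 and 58.2 scaled RPKM in KO stage II, 83.6, 65.2 and 70.9 in KO stage III, and 56.8, 56.1 and 54.0 in KO stage IV. In WT cells it had 74.5, 76.3 and 66.7 scaled RPKM at stage II, 73.7, 69.5 and 64.8 at stage III, and 55.4, 55.2 and 43.3 at stage IV. Stage IV lay below stage II in every library of both genotypes. Psmb9 fell in WT cells, with a log2 fold change of -0.50 ± 0.13 (adjusted p = 0.0130), and had -0.19 ± 0.13 in KO cells (adjusted p = 0.389). The KO change minus the WT change was 0.31 ± 0.18 on the log2 scale and did not pass the test (adjusted p = 0.928). Psmb9 shares 212 exon bases with Tap1 on the opposite strand, and the strand setting of the counting is not stated.

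Psmb8 had 172, 139 and 147 scaled RPKM in KO stage II, 230.0, 120.2 and 169.7 in KO stage III, and 122, 98.4 and 97.7 in KO stage IV. WT cells had 161, 152 and 138 scaled RPKM at stage II, 137, 129.7 and 122 at stage III, and 109, 109 and 109 at stage IV. Stage IV lay below stage II in every library of both genotypes. The log2 fold changes of stage IV against II, -0.52 ± 0.18 in KO cells (adjusted p = 0.0590) and -0.46 ± 0.18 in WT cells (adjusted p = 0.0938), did not pass the test. Of 9 other settings, 6 called Psmb8 in KO cells and 5 in WT cells, each as lower at stage IV.

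Psmg2 encodes a chaperone that pairs with Psmg1 to assemble the alpha ring. It had 52.5, 52.2 and 56.2 scaled RPKM in KO stage II, 63.9, 39.3 and 75.0 in KO stage III, and 41.1, 27.0 and 32.8 in KO stage IV. In WT cells it had 48.8, 50.6 and 49.3 scaled RPKM at stage II, 38.3, 40.3 and 33.8 at stage III, and 31.2, 27.1 and 26.3 at stage IV. The 3 WT stages did not overlap and stepped down in order. Stage IV against II gave a log2 fold change of -0.67 ± 0.19 in KO cells (adjusted p = 0.0216) and of -0.82 ± 0.19 in WT cells (adjusted p = 0.00693). Its partner Psmg1 had a log2 fold change of -0.54 in KO and -0.42 in WT cells, neither of which passed the test.

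Psmc1, an ATPase of the 19S base, had 146, 157 and 171 scaled RPKM in KO stage II, 182, 131 and 176 in KO stage III, and 116, 109 and 117 in KO stage IV. WT cells had 146, 159 and 151 scaled RPKM at stage II, 137, 141 and 138 at stage III, and 124, 129 and 132 at stage IV. Both genotypes were lower at stage IV in all 3 libraries. The log2 fold change passed the test in KO cells (-0.47 ± 0.12, adjusted p = 0.0120) and not in WT cells (-0.25 ± 0.12, adjusted p = 0.191). The KO change minus the WT change was -0.22 ± 0.17 (adjusted p = 1.0).

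**Figure D1:**
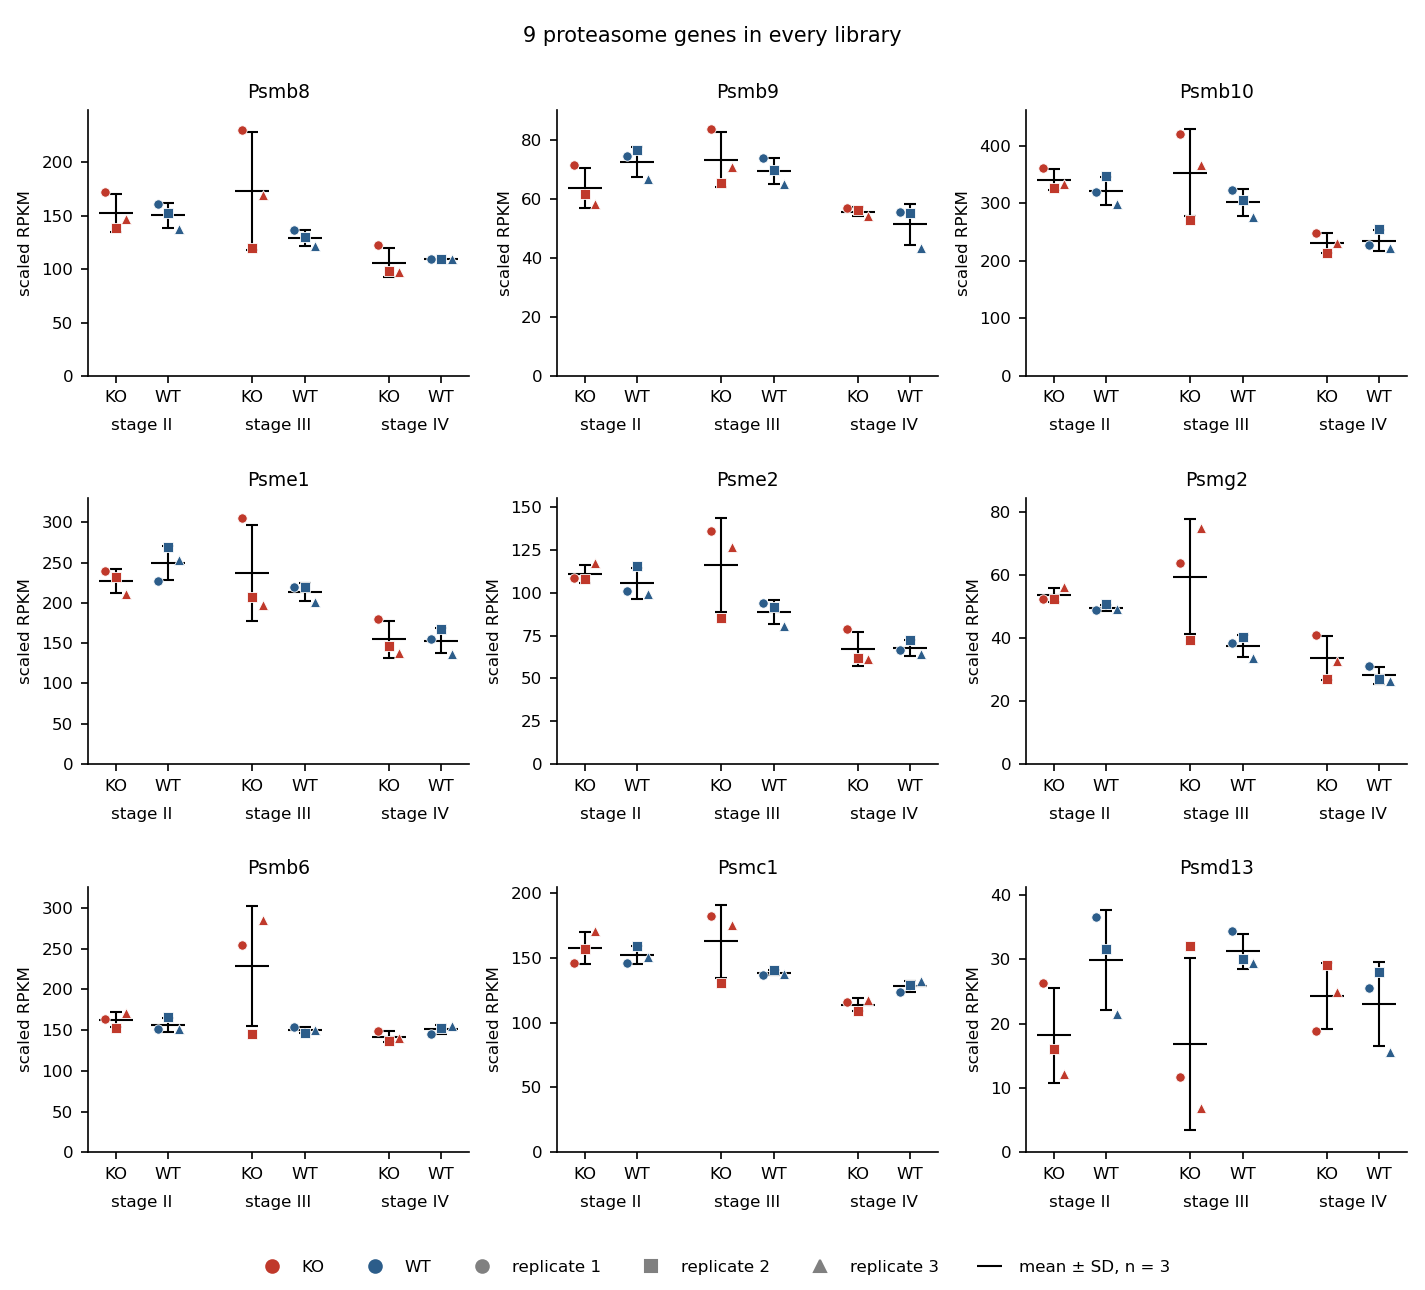
Scaled RPKM of 9 proteasome genes in each of the 18 libraries, with KO in red left of WT in blue within each stage; black bars are the mean ± SD of 3 libraries. Psme1, Psme2, Psmb10 and Psmg2 are lower at stage IV than at stage II in both genotypes, and Psmb6 is high in KO stage III replicates 1 and 3, at 255 and 286 scaled RPKM, but not in replicate 2, at 145.

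By class, the medians of the immunoproteasome and PA28 genes lay farther from 0 than those of the constitutive core, which is a description with no test. In KO cells the median log2 fold change of stage IV against II was -0.52 for the 3 immunoproteasome genes, -0.64 for Psme1 and Psme2, -0.19 for the 14 tested 20S alpha and constitutive beta genes and -0.10 for the 17 genes of the 19S particle. The corresponding WT medians were -0.46, -0.67, -0.17 and -0.08, while the median of all tested genes was 0.03 in KO cells and -0.02 in WT cells. Summed over Psmb8, Psmb9 and Psmb10, the level was 557 ± 42.2 scaled RPKM in KO stage II and 544.5 ± 37.2 in WT stage II (SD, n = 3 each). At stage III it was 599.7 ± 139 in KO cells and 500.6 ± 35.2 in WT cells, and at stage IV 393 ± 30.8 in KO cells and 396 ± 23 in WT cells. The sum of the 19S genes was 1317 ± 64.4 scaled RPKM in KO stage II and 1314 ± 95.1 in WT stage II, 1429.6 ± 156 in KO stage III and 1286 ± 45.2 in WT stage III, and 1200.1 ± 10.6 in KO stage IV and 1240.5 ± 48.2 in WT stage IV.

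**Figure D2:**
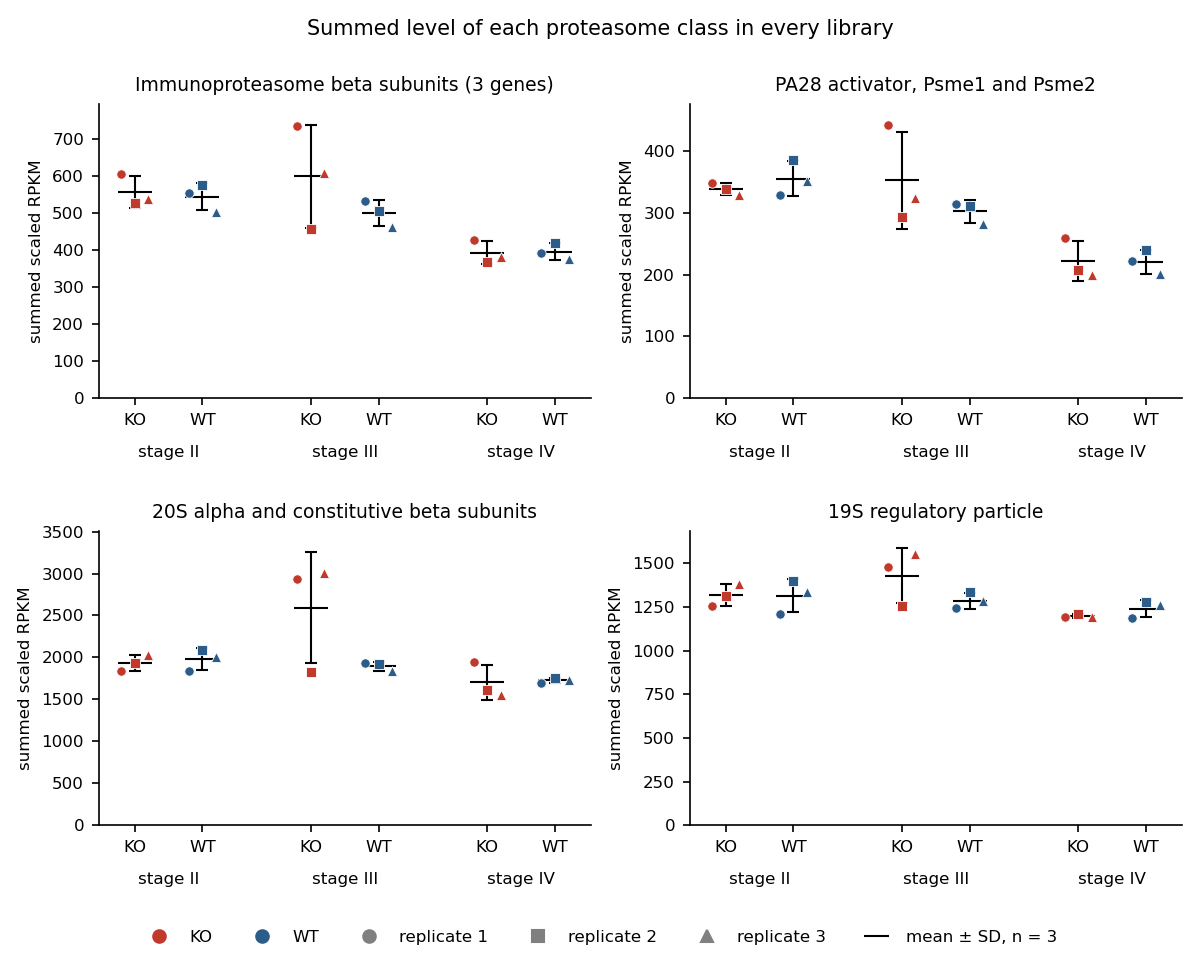
Summed scaled RPKM of 4 proteasome classes in each library, KO (red) left of WT (blue) at each stage, with the mean ± SD of 3 libraries in black. The immunoproteasome and PA28 sums are lowest at stage IV in both genotypes, and the 20S sum is 2938 and 3009 in KO stage III replicates 1 and 3 against 1832 in replicate 2.

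Counted library by library, all 3 stage IV libraries lay below all 3 stage II libraries for 16 of 48 members in KO cells, where 20% of all tested genes did so, and for none above, where 17.0% did. In WT cells this held for 20 of 48 members below, where 22.3% of all genes did so, and for 1 above, where 20.4% did. The WT gene that was higher was Psme4 (log2 fold change 0.48), which did not pass the test. There were 10 members below in both genotypes, where 13.8% of all tested genes were, among them all 3 immunoproteasome genes and both PA28 genes. Neither single WT step had a member that passed the test (stage III against II, where 2.97% of all genes were called, and stage IV against III, where 3.17% were). At an unadjusted p under 0.05 there were 1 and 5 members in these 2 steps, and the shares of all genes at that p are not given. DESeq2 called 0 in stage III against II and 2, Psmb9 and Psme1, in stage IV against III. Its all-gene count in the latter step is not given.

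Markers of other cells moved with the stage as well. The B cell list, of which 10 of 11 genes were found, summed to 167 to 224 CPM in KO stage IV and 237 to 351 CPM in WT stage IV, against 1940 to 2089 CPM in KO stage II and 1463 to 1681 CPM in WT stage II. Most of it was Ighm and Cd74. The defining B cell genes Pax5 and Ms4a1 reached at most 0.21 and 2.05 CPM in any library, while H2-Aa, Cd22 and Cd79b of the same list reached 65.0, 62.3 and 30.7 CPM. A list of 9 markers of type 1 innate lymphoid cells summed to 51.2 to 68.2 CPM in KO stage IV and 24.6 to 29.7 CPM in WT stage IV, against 1664 to 2020 CPM in KO stage II and 683 to 1312 CPM in WT stage II. Of these, Il7r, Cxcr6, Tmem176b, Tmem176a and Cd200r1 reached 697, 408, 381, 191 and 188 CPM. Tnfsf10, Il2ra, Zfp683 and Itga1 reached 88.4, 66.9, 38.5 and 32.1 CPM. The 12 T cell markers, also found in part in NK cells, summed to 358 to 412 CPM in KO stage IV and 403 to 621 CPM in WT stage IV, against 1386 to 1704 CPM in KO stage II and 1399 to 1787 CPM in WT stage II. The highest values of this list were those of Cd28, Trbc1 and Trbc2, which reached 730, 628 and 308 CPM. Cd3d, Cd3g, Cd3e, Camk4 and Trac reached 142, 132, 47.0, 40.7 and 23.4 CPM. The T cell genes Cd4, Cd8a, Cd8b1 and Cd5 reached at most 0.67, 0.32, 1.55 and 1.60 CPM in any library. The part of such cells in the fall of proteasome genes was not tested, and in sorted bulk cells fewer cells of one kind and less RNA per cell cannot be told apart.

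The mean shares of Psmb8 and Psmb10 in their catalytic pairs were lower at stage IV than at stage II in both genotypes, and that of Psmb9 was lower at stage IV in WT cells alone. Shares were computed per library from the deposited RPKM and are a description with no test. Psmb8 made up 74.3 ± 0.182% of Psmb8 plus Psmb5 in KO stage II and 73.8 ± 1.43% in WT stage II (SD, n = 3 each). At stage III the share was 72.3 ± 0.193% in KO and 72.8 ± 1.48% in WT cells, and at stage IV it was 70.3 ± 1.54% in KO and 70.6 ± 0.239% in WT cells. The stage IV libraries all lay below the stage II libraries in each genotype.

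Psmb10 made up 80.5 ± 2.64% of Psmb10 plus Psmb7 in KO stage II and 77.4 ± 2.70% in WT stage II. It made up 78.1 ± 3.58% in KO stage III and 76.2 ± 1.67% in WT stage III, and 75.3 ± 2.44% in KO stage IV and 73.7 ± 0.541% in WT stage IV. The KO ranges of the 2 stages, 73.7% to 78.1% at stage IV and 77.9% to 83.2% at stage II, overlapped. Psmb9 made up 28.1 ± 2.51% of Psmb9 plus Psmb6 in KO stage II and 31.7 ± 1.22% in WT stage II, 25.2 ± 5.58% in KO stage III and 31.6 ± 1.18% in WT stage III, and 28.2 ± 0.832% in KO stage IV and 25.3 ± 3.12% in WT stage IV. The Psmb9 share was the lowest of the 3 with listed lengths, with principal transcript lengths and from counts. The order of Psmb8 and Psmb10 depended on the length: their medians over the 18 libraries were 72.4% for Psmb8 and 76.6% for Psmb10 with listed lengths, and 82.0% for Psmb8 and 75.1% for Psmb10 with principal transcripts. Over all 18 libraries the share of Psmb8 in its pair ran from 68.7% to 75.4% with listed lengths and from 79.2% to 84.2% with principal transcripts.

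**Figure D3:**
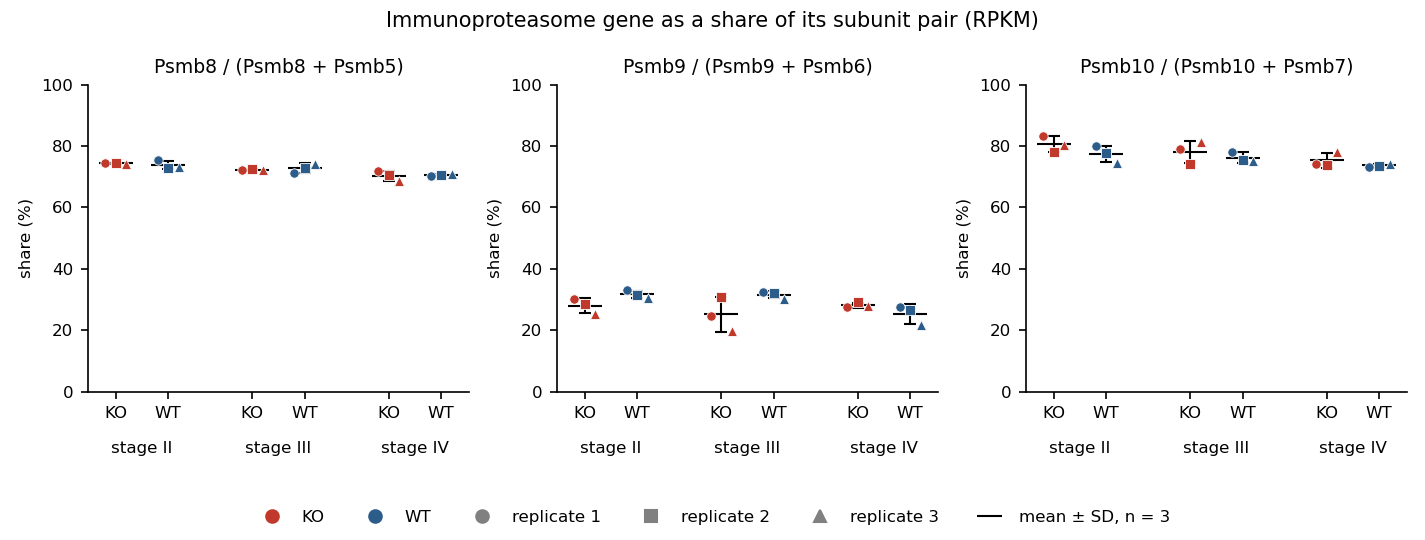
Share of each inducible subunit gene in the sum of its own and its constitutive counterpart's RPKM, in percent, per library, KO (red) left of WT (blue), with the mean ± SD of 3 libraries. The Psmb8 share falls between 68.7% and 75.4% in every library, and the Psmb9 share has its widest spread, 19.9% to 31.0%, in KO stage III.

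None of the constitutive counterparts Psmb5, Psmb6 and Psmb7 was called between the stages. Psmb5 had 48.1, 41.4 and 44.6 scaled RPKM in KO stage IV and 59.0, 47.8 and 51.2 in KO stage II. WT cells had 46.1, 45.6 and 45 scaled RPKM at stage IV and 52.6, 57.0 and 50.4 at stage II. Psmb7 had 86.8, 76.6 and 64.5 scaled RPKM in KO stage IV and 72.9, 92.4 and 81.4 in KO stage II, and in WT cells 83.5, 91.8 and 77.0 at stage IV and 80.3, 99.7 and 102 at stage II. For Psmb7 the stages overlapped in both genotypes, and for Psmb5 in KO cells. In WT cells every Psmb5 library of stage IV lay below every one of stage II. Psmb6 had 149, 136 and 139.8 scaled RPKM in KO stage IV and 164, 153 and 171 in KO stage II, and in WT cells 145, 152 and 156 at stage IV and 151, 166 and 151 at stage II. For Psmb6 the stages overlapped in WT cells, and in KO cells every stage IV library lay below every stage II library. Stage IV against II gave log2 fold changes of -0.24 ± 0.18 in KO and -0.23 ± 0.18 in WT cells for Psmb5. They were -0.20 ± 0.17 in KO and -0.05 ± 0.17 in WT cells for Psmb6, and -0.11 ± 0.14 in KO and -0.16 ± 0.14 in WT cells for Psmb7. 

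Between KO and WT cells no proteasome gene was called at stage II or at stage IV in the main test. So few genes of any kind were called that 0 of 48 is near the share of all genes. The counts thus do not show whether members depend on Eomes. At stage II no member was called, where 1.46% of all tested genes were, and 1 member, Psme4, had an unadjusted p under 0.05 (log2 fold change 0.47, adjusted p = 0.413). At stage IV no member was called, where 0.509% of all genes were, and none had an unadjusted p under 0.05. DESeq2 called 0 members at each of these stages. At stage II voom with quality weights called Psme4, in a fit that called 533 of 14156 genes higher and 528 lower. A fit with no filter called Psmd13 at stage II, with 163 of 33645 genes higher and 460 lower. At stage II the log2 fold changes ran from -0.72 (Psmd13) to 0.47 (Psme4), and at stage IV from -0.23 (Psmd1) to 0.27 (Psmd3). The 3 immunoproteasome genes lay between -0.19 and 0.08 at stage II and between -0.04 and 0.12 at stage IV, with SEs of 0.13 to 0.18. All 3 KO libraries lay above all 3 WT libraries for 3 of 48 members at stage II, where 11.0% of all genes did, and below for 2, where 8.45% did. At stage IV the counts were 0 above, where 6.99% of all genes did so, and 3 below, where 6.46% did.

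At stage III, 2 members were called higher in KO cells, where 5.16% of all tested genes were called higher and 7.9% in either direction. Both calls rest on KO stage III replicates 1 and 3. Psmb6, the constitutive subunit that Psmb9 replaces, had 255, 145 and 286 scaled RPKM in KO stage III and 154, 147 and 149.5 in WT stage III. Psmg2 had 63.9, 39.3 and 75.0 scaled RPKM in KO stage III and 38.3, 40.3 and 33.8 in WT stage III. For both genes replicates 1 and 3 were above all WT libraries and replicate 2 was within the WT range or below it. The log2 fold changes were 0.61 ± 0.17 for Psmb6 (adjusted p = 0.0428) and 0.66 ± 0.19 for Psmg2 (adjusted p = 0.0433). Without the 2 libraries they were -0.058 (adjusted p = 0.999) and 0.06 (adjusted p = 1.0), with the lone KO stage III library taken to vary like the other groups. Both calls were also lost when any 1 of the 17 libraries other than KO stage III replicate 2 was left out, and without KO stage III replicate 2 the count was 27, in a fit that called 30.6% of all genes. Psmb5 had 89.0, 45.6 and 65.2 scaled RPKM in KO stage III and 55.1, 48.1 and 42.1 in WT stage III, a log2 fold change of 0.46 ± 0.18 that did not pass the test (adjusted p = 0.107). Psmb7 had 112, 94.4 and 85.0 scaled RPKM in KO stage III and 90.3, 99.5 and 92.0 in WT stage III, with a log2 fold change of 0.05 ± 0.14.

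The pattern at stage III was present in KO stage III replicates 1 and 3 and not in replicate 2. The quality weights that voom gives were low in all 3 libraries of this group, at 0.170, 0.156 and 0.324 for replicates 1, 2 and 3. The lowest weight in any other group was 0.530, in WT stage II replicate 1. Which of the 3 libraries stands for the group was not tested. With all libraries, 41 of 48 members had a log2 fold change above 0, and the median of the members was 0.25 against 0.02 for all tested genes. Of all tested genes, 2470 of 3694 under 2000 bases and 4769 of 10462 longer ones were above 0. An unadjusted p under 0.05 was found for 22 members, and the share of all genes at that p is not given. All 3 KO libraries lay above all 3 WT libraries for 3 members (Psmd8, Psmd9 and Psmf1), where 9.29% of all genes did, and below for 2 (Psmc3 and Psmd2), where 11.2% did. All 14 tested 20S alpha and constitutive beta genes were above 0, from 0.05 to 0.66, with a median of 0.44. The 17 genes of the 19S particle had a median of 0.12 and ran from -0.89 to 0.43, and the 3 immunoproteasome genes had a median of 0.23. Without replicates 1 and 3, 12 of 48 members were above 0, 1 of the 14 core genes was, the core median was -0.07, and no member was called.

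Set against the WT mean of the stage, the median log2 difference of the 14 core genes was 0.67, -0.06 and 0.66 in KO stage III replicates 1, 2 and 3. That of the 19S genes was 0.08, -0.04 and 0.15 in the same libraries. In KO stage II the core medians were -0.10, -0.02 and 0.07, and in KO stage IV 0.16, -0.11 and -0.10. In replicates 1 and 3 of KO stage III the core genes thus stood above the 19S genes, and in replicate 2 both were near 0.

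Gene length moved with this difference. Of members with a listed length under 2000 bases, 22 of 22 were above 0 at stage III with a median of 0.40, against 19 of 26 longer members with a median of 0.16. Over all tested genes the medians were 0.26 for shorter and -0.05 for longer genes. Without the 2 libraries the medians were -0.04 and -0.08 for shorter and longer members, and 0.00 and 0.02 for all shorter and longer genes. The gate gene Itgam, which encodes CD11b, was at 92.7, 298 and 83.6 CPM in KO stage III replicates 1, 2 and 3. In WT stage III it was at 390 to 469 CPM. The NK list summed to 8590 to 11473 CPM in KO stage III and 15031 to 16471 CPM in WT stage III. The list for type 1 innate lymphoid cells summed to 149 to 281 CPM in KO stage III and 50.8 to 63.1 CPM in WT stage III, and the B cell list to 901 to 1180 CPM in KO stage III and 705 to 773 CPM in WT stage III. The 12 myeloid markers summed to 330.2 to 658 CPM in KO stage III, with the highest sum in replicate 2, and to 395 to 457 CPM in WT stage III. Of this list Itgax alone ran from 222 to 544 CPM over the 18 libraries. Lyz2 and Cd68 reached 63.1 and 41.8 CPM, while Csf1r, Adgre1 and Mpo reached at most 9.97, 3.81 and 1.82 CPM. The part of gene length, library complexity or these cells in the stage III difference was not tested.

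**Figure D4:**
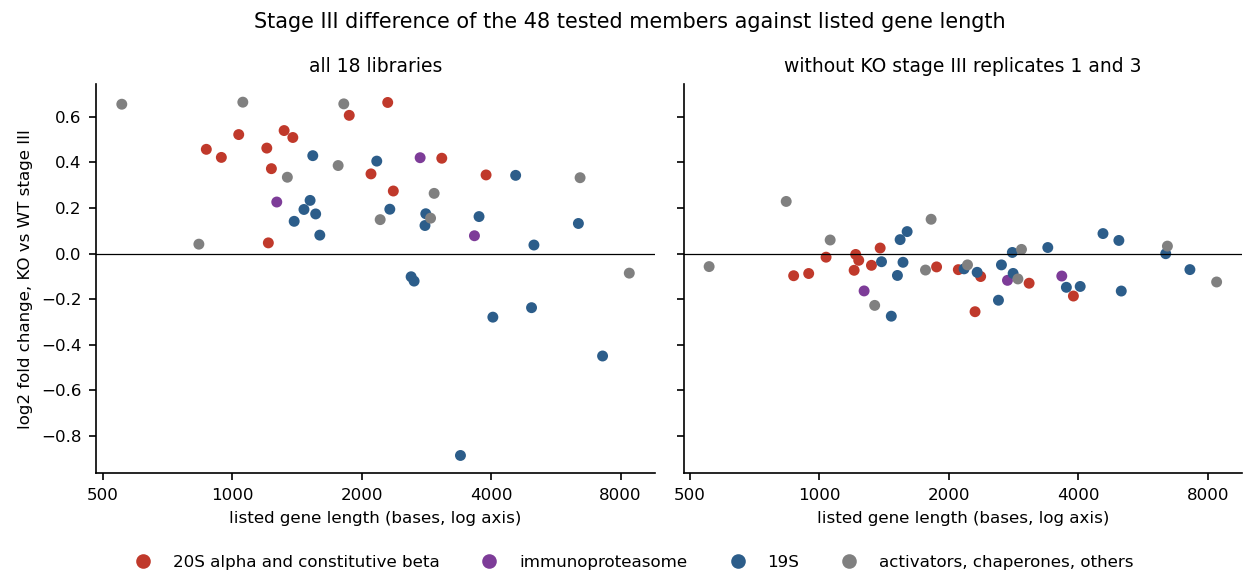
Log2 fold change of KO against WT at stage III for the 48 tested members (1 point each, coloured by class) against listed gene length in bases on a log axis, with all libraries on the left and without KO stage III replicates 1 and 3 on the right. With all libraries the points under 2000 bases are all above 0, and without the 2 libraries 12 of 48 points are.

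Psmd13, the member with the widest spread, went the other way in the same libraries. It had 26.4, 16 and 12.1 scaled RPKM in KO stage II and 36.6, 31.6 and 21.4 in WT stage II. At stage III it had 11.7, 32.1 and 6.89 scaled RPKM in KO cells and 34.4, 30.0 and 29.4 in WT cells, and at stage IV 18.9, 29.1 and 25 in KO cells and 25.5, 28.0 and 15.6 in WT cells. KO and WT libraries overlapped at every stage. The log2 fold changes of KO against WT were -0.72 ± 0.42, -0.89 ± 0.42 and 0.08 ± 0.42 at stages II, III and IV, and none was called. Psmd13 shares 152 exon bases with Sirt3 on the opposite strand.

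No member's KO effect was shown to differ between stages. The interaction of genotype with stage called 0 of 48 members for stage IV against II, where 0.212% of all genes were called, and none had an unadjusted p under 0.05. For stage III against II it called 0, where 0.0494% of all genes were called, and 8 members had an unadjusted p under 0.05. Without KO stage III replicates 1 and 3 none did, and the member median of that interaction was -0.05 in place of 0.26. DESeq2 called 0 members in each interaction. For the unadjusted p-values here and in the mean over stages, shares of all genes are not given. Averaged over stages, KO against WT called no member, where 5.45% of all genes were called, while 5 members had an unadjusted p under 0.05 and DESeq2 called 1, Psmg2 (log2 fold change 0.34 in edgeR, adjusted p = 0.0801). Without KO stage III replicates 1 and 3 no member had an unadjusted p under 0.05 in this mean, and Psmg2 had 0.14.

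**Figure D5:**
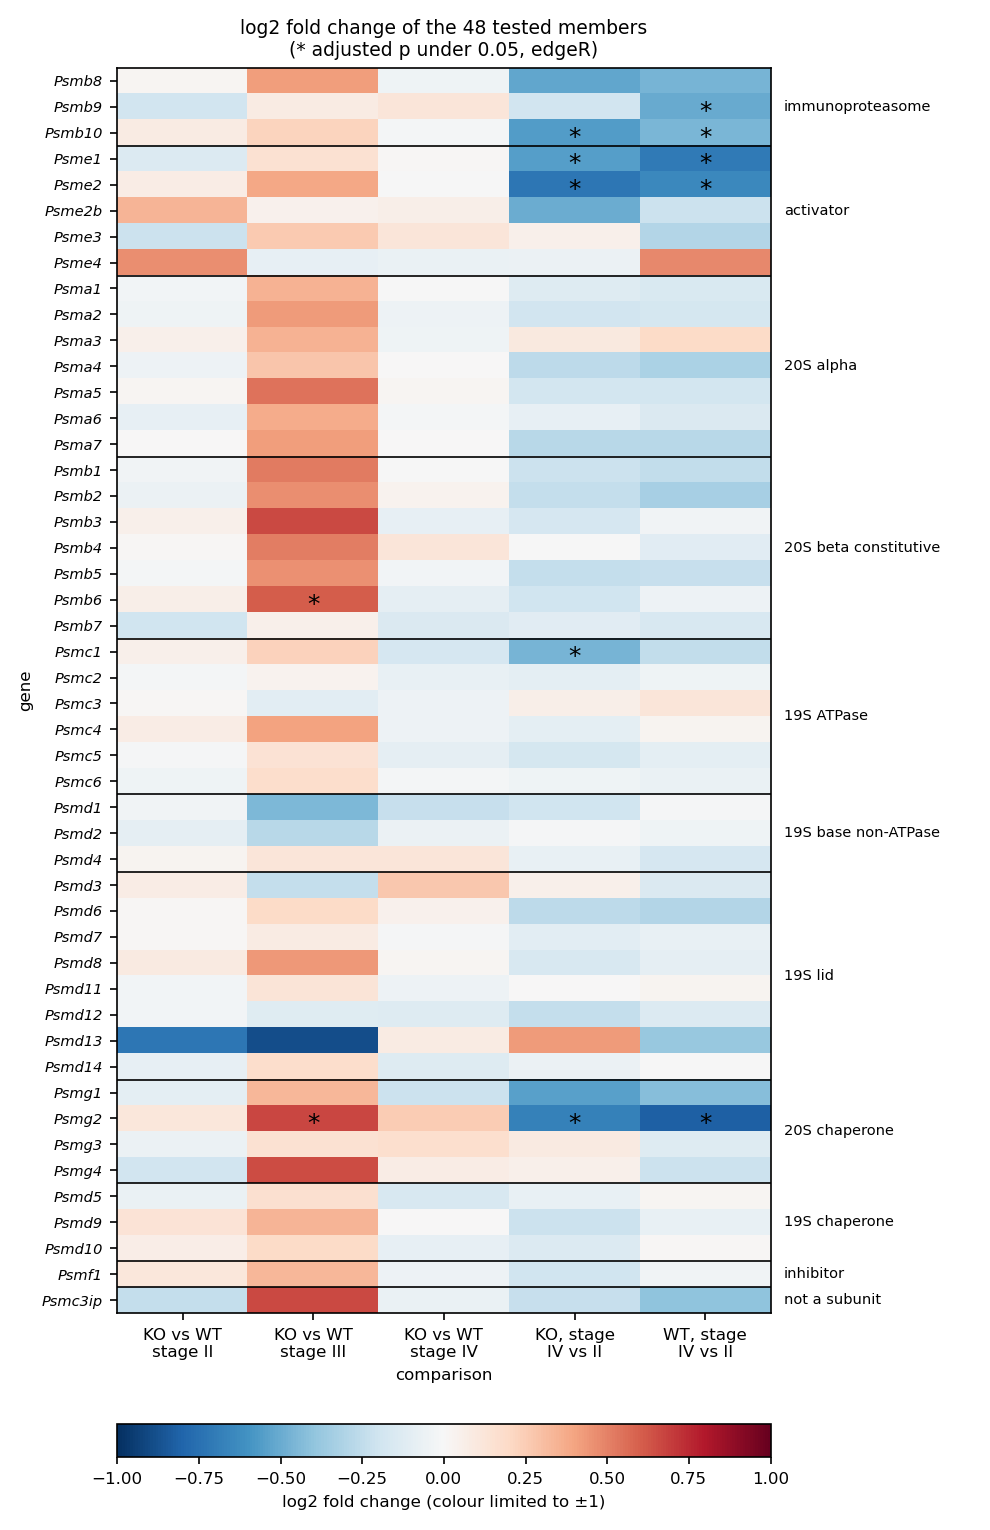
Log2 fold changes of the 48 tested members (rows, grouped by role) in 5 comparisons (columns), red for higher and blue for lower in the first-named group, with an asterisk where the adjusted p was under 0.05. The asterisks fall on 5 members in each stage IV against II column, on Psmb6 and Psmg2 in KO against WT at stage III, and on none at stages II and IV.

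Genes that act with the proteasome were read from 4 lists. Over all tested genes, 8.76% fell and 6.12% rose in KO stage IV against II, and 9.82% fell and 5.26% rose in WT cells. In KO against WT 1.46%, 7.9% and 0.509% were called at stages II, III and IV. In lists this short such shares come to few genes or none, so a count of 0 says little. None of 15 partner genes, such as the maturation factor Pomp, the lid component Sem1 and the deubiquitinase Usp14, was called in KO against WT at any stage or in stage IV against II in either genotype. None of 6 ubiquitin and E1 genes was called in those comparisons. Of 5 genes that control proteasome gene expression, Nfe2l2, which encodes the stress factor NRF2, rose in WT stage IV against II (log2 fold change 0.30, adjusted p = 0.0481) and had 0.17 in KO cells (adjusted p = 0.313). Nfe2l1, the factor that restores proteasome genes after inhibition, had 0.61 in KO cells (adjusted p = 0.0632) and 0.42 in WT cells (adjusted p = 0.212).

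Among 9 genes of peptide loading and its inducers, 3 fell in stage IV against II and the same 3 genes did so in each genotype. Of all tested genes, 6.26% were called lower in both genotypes. These were Tapbp, which tethers MHC class I to the peptide transporter (-0.58 in KO, -0.40 in WT cells), the peptide trimmer Erap1 (-0.46 in KO, -0.53 in WT cells) and the class I transactivator Nlrc5 (-0.46 in KO, -0.35 in WT cells). Tap1, which shares its promoter with Psmb9, had -0.48 in KO cells (adjusted p = 0.175) and -0.32 in WT cells (adjusted p = 0.381). In KO against WT, B2m, the light chain of MHC class I, was the 1 gene of this list that was called, with 0.52 at stage III (adjusted p = 0.0485). Without KO stage III replicates 1 and 3 it had 0.07 (adjusted p = 0.999).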

How the data were processed

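RNA of sorted NK cells was measured in 18 libraries. Per the file headers, the authors deposited a raw count of reads per Ensembl gene and an RPKM, which equals that count scaled by the listed gene length and the library's total. Per the submitters' processing notes STAR 2.0.4 and featureCounts 1.4.5 from Subread were used; not given in the sources used here are the build, read type and strandedness. Of 41388 IDs, 40340 were in GENCODE M21, which gave the symbols.

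The test was that of edgeR 4.0.16 (R 4.3.3): filter by group (14156 genes), trimmed mean of M values, 1 quasi-likelihood model with 6 group means, adjustment by Benjamini and Hochberg over all genes tested. Unless another tool is named, adjusted p-values come from this test. A gene was called at an adjusted p under 0.05. Member counts at an unadjusted p under 0.05 are given without the share of all genes, so they cannot be set against it. SEs are approximations, the size of a log2 fold change over the root of its F, with a prior count of 0.125. The test was tried on simulated counts.

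Members, lists and alternatives were chosen with earlier results of these data known. Genes named with values in every library are Psmb8, Psmb9, Psmb10, Psmb5, Psmb6, Psmb7, Psme1, Psme2, members called in KO against WT, and up to 6 called between stages. Alternatives were DESeq2 1.42.0, voom with quality weights from limma 3.58.1, other scalings, no filter, only the groups compared, a replicate block and left-out libraries. Promoter windows are from RefSeq on GRCm38.p6. Some genes of the fixed lists are not reported here. Errors come from the spread between libraries.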

Additional observations from a re-analysis of the deposited data

How the results depend on the processing

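Members called without KO stage III replicates 1 and 3 were 9 in WT stage IV against II, 4 in WT stage IV against III and 0 in KO against WT at stage III, where the log2 fold change of Psmb6 turned to -0.058. DESeq2 called 11 at KO against WT stage III, where it called 1427 of 33491 genes higher and 847 lower. It called 1 over the mean of 3 stages, where 709 genes were higher and 610 lower, and 2 in WT stage IV against III. Voom with quality weights called 13 in KO stage IV against II and 16 in WT stage IV against II. Of 14156 genes it called 1919 higher and 2272 lower in the first, and 2311 and 2844 in the second. It called 2 over the mean of 3 stages, where 763 genes were higher and 790 lower. At stage II it called 1 (Psme4) in KO against WT, where 533 were higher and 528 lower. In WT cells it called 3 in stage III against II, where 712 were higher and 1118 lower, and 7 in IV against III. With no filter (33645 genes), KO against WT had 1 (Psmd13) at stage II, 4 at stage III and 1 (Psmd13) over the mean. All genes called higher and lower were 163 and 460, 1057 and 884, and 708 and 645 in that order. WT stage IV against II had 3, where 811 genes were higher and 2040 lower. With only the groups compared, the count was 0 for KO against WT stage III, where 9 of 12535 genes were higher and 1 lower. For WT cells it was 1 in stage III against II, where 444 of 12699 genes were higher and 570 lower. It was 14 in WT stage IV against II, where 1505 of 12654 genes were higher and 2158 lower, and 5 in IV against III. This setting could not be applied to the mean. Library totals alone gave 9 in WT stage IV against II, where 502 of 14156 genes were higher and 1570 lower. They gave 0 in KO against WT stage III, where 213 genes were higher and 306 lower. The member median there was 0.07 and that of all genes -0.14. Replicates 2 and 3 alone gave 0 in KO against WT stage III, where 134 of 14078 genes were higher and 89 lower. The cause of these changes was not tested. For WT stage IV against III, all-gene counts are not given for these settings, the replicate block or the left-out libraries. Its member counts there thus cannot be set against a general rate. In the main test of that step 3.17% of all genes and no member were called.

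Same-numbered KO and WT libraries of a stage had correlations of -0.10 to 0.17 and did not each correlate best with their own number. The main test used no pairing, and with 3 libraries per group these correlations cannot show that pairing is absent. Pairing between stages was not examined in this way. A replicate block gave 4 calls in KO against WT stage III, where 1052 of 14156 genes were higher and 718 lower, and 1 in WT stage IV against III. In stage IV against II it gave 7 in KO cells, where 1010 genes were higher and 1367 lower. In WT cells it gave 6, where 900 were higher and 1501 lower.

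With 1 library left out in turn, calls ran from 0 to 27 in KO against WT stage III, 0 to 10 over the mean of 3 stages, 0 to 16 in the interaction of stage III minus II, 1 to 6 in KO stage IV against II, 0 to 6 in WT stage IV against II and 0 to 2 in WT stage IV against III. The highest values of the first 3 came without KO stage III replicate 2, and the 2 calls in WT stage IV against III without KO stage III replicate 1. Without KO stage III replicate 2, 2456 of 16318 genes were higher and 2537 lower in KO against WT stage III. Over the mean these were 1565 and 1631, and in the interaction of stage III minus II 1113 and 1330. Every fit of this kind gave 0 for KO against WT stages II and IV, WT stage III against II and the interaction of stage IV minus II. Shares taken from counts gave a Psmb8 difference of stage IV and II of -1.97 percentage points in KO and -1.56 in WT cells.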
